A study of Homo sapiens with 10 samples.

Results

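The transcripts described here were the 3529 annotated nonsense-mediated decay (NMD) transcripts expressed in NB4, a cell line from human acute promyelocytic leukaemia that carries the PML-RARA fusion. They were selected on 2 criteria, the biotype nonsense_mediated_decay in GENCODE release 29 and a mean of at least 1 TPM (transcript abundance per length, scaled so that each library has the same total) over all 4 NB4 libraries. The deposited table held 121005 transcripts, of which 10517 had this biotype and 49187 of any biotype reached 1 TPM. The members belonged to 2447 genes, and 725 of these genes had 2 or more members. FANCA, a Fanconi anaemia repair gene, had the most, with 10.

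NB4 cells were cultured with a control treatment (2 libraries, control 1 and 2) or with 1 µM JOA (2 libraries, JOA 1 and 2), and RNA was taken after 48 h. JOA is a compound given only by this code name, and the source label of the treated libraries reads I13 where the title, agent and treatment labels read JOA. All 4 libraries came from the same cell line, were extracted with Trizol and were prepared with a stranded kit for poly(A) RNA. The labels do not say whether the 2 libraries of a group came from separate cultures, so the error between them may be technical.

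NMD is a translation-dependent surveillance route that removes messenger RNAs whose stop codon lies well upstream of an exon junction. Splicing leaves an exon junction complex on the RNA near each junction, and a complex that stays bound downstream of a terminating ribosome recruits the helicase UPF1 through UPF2 and UPF3. The kinase SMG1 phosphorylates UPF1, and further factors such as SMG5 and the endonuclease SMG6 then lead to cleavage, decapping and degradation. Many splicing factor genes use the route to limit their own output by including a "poison" exon with an in-frame stop codon. The biotype is an annotator's prediction from transcript structure, and a TPM value gives the RNA that is present, not its rate of decay.

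The stop codons that ended the reading frames of 5 splicing factor members are shown first, because all 5 lie in exons that the most abundant coding transcript of the gene lacks. These are the 5 most abundant splicing factor members with such an exon, and they come from genes of SR proteins (SRSF3, SRSF6), an SR-like factor (TRA2B), an hnRNP (HNRNPH1) and a relative of TIA1 (TIAL1). Each line gives the last bases of the reading frame in RNA sense, 5′ to 3′, from the GENCODE release 29 transcript on GRCh38. Capitals mark the stop codon.
SRSF6-202, plus strand, chr20:43459245-43459304: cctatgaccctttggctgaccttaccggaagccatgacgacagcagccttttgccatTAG
TRA2B-206, minus strand, chr3:185931772-185931831: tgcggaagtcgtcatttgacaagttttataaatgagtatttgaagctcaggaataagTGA
SRSF3-203, plus strand, chr6:36599821-36599854: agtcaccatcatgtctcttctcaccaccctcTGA
TIAL1-213, minus strand, chr10:119580810-119580846: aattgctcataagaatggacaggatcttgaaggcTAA
HNRNPH1-219, minus strand, stop codon at chr5:179621951-179621953: tctgcgttggtaacggaaagcgacctgTAA
The exons holding these stops were 268 bases long in SRSF6-202, 276 in TRA2B-206, 456 in SRSF3-203, 376 in TIAL1-213 and 134 in HNRNPH1-219.

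Most members were scarce. The median member had a mean of 2.69 TPM (quartiles 1.58 and 5.61), 982 members reached 5 TPM, 449 reached 10 TPM and 21 reached 100 TPM. The limit of 1 TPM cut through the low end of a continuous range. Just inside it, AKR7A2-203 had 0.477 and 0.484 TPM in the control libraries and 1.07 and 1.98 with JOA, and just outside it, HDAC7-228 had 0.427 and 0.414 TPM in the control libraries and 1.83 and 1.33 with JOA. Of the 3529 members, 262 had a control mean under 1 TPM and 214 a JOA mean under 1 TPM, so these had passed through the higher group alone. All 4 libraries were above 0 for 3384 members, and 145 members were listed at 0 in at least 1 library. In sum, the members held 2.50% and 2.49% of the TPM of the control libraries, against 79.1% and 80.2% for the protein coding transcripts that reached 1 TPM and 8.21% and 7.66% for the retained intron transcripts.

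Within its own gene, the median member held 6.72% of the summed TPM (quartiles 3.01% and 14.8%), compared with 18.9% for coding transcripts and 6.20% for retained intron transcripts. For 334 members the NMD transcript was the most abundant transcript of its gene, 138 held 50% or more, and 1395 held under 5%. There were 32 members with no other transcript of the gene above 0. Reads on exons that transcripts share have to be divided between them by estimation, and how the authors did so is not given in the sources used here, so a member's level depends on that estimate as well as on the reads.

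The most abundant member was HNRNPA1-205, from the gene of an hnRNP that binds nascent RNA and regulates splicing. It had 1252 and 1095 TPM in the control libraries and 1241 and 1166 TPM with JOA, which was 40.5% and 40.9% of the gene in control and 39.6% and 38.8% with JOA. The groups overlapped in TPM, and the 95% interval of the log2 difference ran from -0.24 to 0.32. Its stop codon is that of the coding model, and its last junction lies 75 bases further downstream.

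B2M, the light chain of MHC class I, had 2 members among the 3 most abundant. B2M-212 had 1013, 955, 1101 and 980 TPM in control 1, control 2, JOA 1 and JOA 2. B2M-201 had 716, 598, 735 and 714 TPM in the same order. Together with their shares of 47.2% and 31.4% in the control mean, these values put most of the TPM of this gene on transcripts with the NMD biotype, while the coding model B2M-204 had 95.3 to 119 TPM over the 4 libraries. B2M-212 keeps the stop codon of the coding model, and B2M-201 stops within a coding exon 67 bases before its last junction.

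Ribosomal and translation genes supplied 3 more of the 10 most abundant members. RPS3-218 (RPS3, a small-subunit ribosomal protein) had 481 and 464 TPM in control and 504 and 441 TPM with JOA. RACK1-224, from the gene of a ribosome-bound scaffold, had 365 and 284 TPM in control and 414 and 434 TPM with JOA, with no overlap, and its log2 difference of 0.40 (SE 0.15) had an adjusted p of 0.785 in limma. RPS2-212 had 33.8 and 518 TPM in control and 135 and 738 TPM with JOA. In RPS2-212 both libraries numbered 2 were above both libraries numbered 1, the replicates of a group differed by more than the groups did, and its log2 difference of 1.24 had an SE of 1.45.

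The other 4 of the 10 were PDIA3-202, COX6C-207, PDAP1-202 and CYTH2-202, and each was the larger part of its gene. PDIA3-202, from the gene of an ER protein disulfide isomerase, had 221 and 270 TPM in control and 200 and 220 TPM with JOA. COX6C-207, of a cytochrome c oxidase subunit, had 209, 253, 230 and 185 TPM in control 1, control 2, JOA 1 and JOA 2. PDAP1-202 had 184 and 204 TPM in control and 185 and 187 TPM with JOA, which was 64.4% and 64.1% of its gene in control and 62.4% and 68.3% with JOA. CYTH2-202 (cytohesin 2, an exchange factor for ARF GTPases) had 149 and 154 TPM in control and 182 and 189 TPM with JOA, without overlap, and an adjusted p of 0.785 in limma. The members with the highest shares in genes of 50 TPM or more, a set chosen after the values were seen, also included PFDN4-202 (a prefoldin chaperone subunit), with 81.8%, 83.8%, 82.8% and 78.8% of its gene in the 4 libraries in the same order, and DDA1-204, with 63.8%, 65.8%, 60% and 70.6%.

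The structure of the members followed the rule by which annotators assign the biotype, a stop codon about 50 bases or more before the last junction, and is given as a description. A stop codon was annotated for 3522 members. In 3495 of them it lay 50 or more bases of transcript before the last junction, with a median of 325 bases (quartiles 159 and 665) and a maximum of 6092. The other 27 had a shorter distance, and in 10 of these the stop was in the last exon. The most abundant of the 27, a set chosen after the values were seen, were ZNF330-208 at 14.9, 11, 15.3 and 13.2 TPM, SLC20A1-205, G3BP1-210 and TIA1-211, which had its stop 31 bases before the junction. The median member had 3 junctions after its stop, and 844 members had exactly 1.

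**Figure D1:**
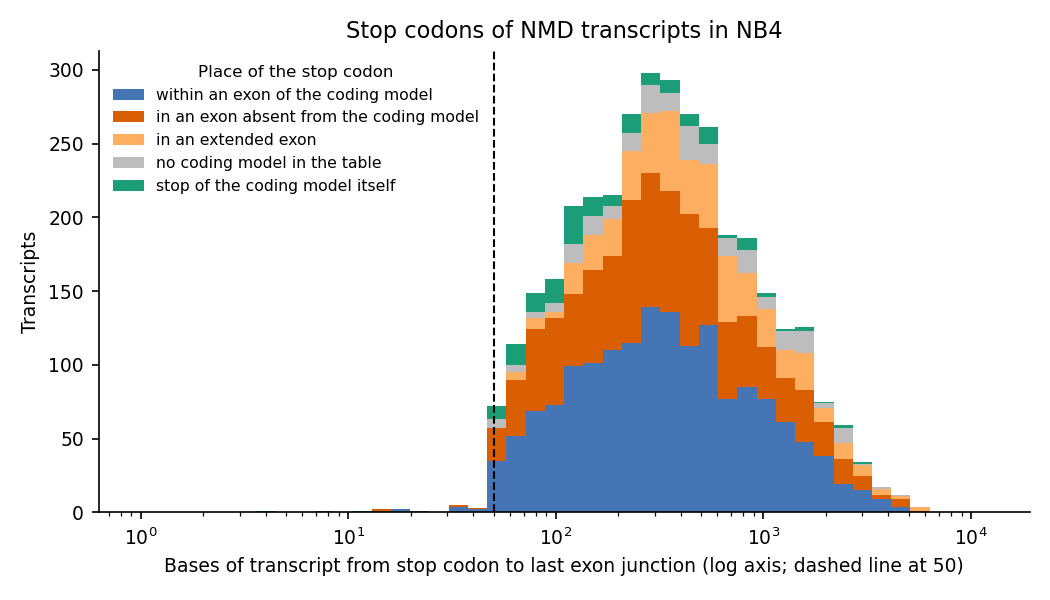
Number of NMD transcripts (vertical axis) by the distance in bases from stop codon to last exon junction (horizontal log axis), with colours for the place of the stop against the most abundant coding transcript of the gene. The 10 members with the stop in the last exon are not drawn, the dashed line marks 50 bases, and the distribution centres on the median of 325 bases.

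The stops were compared with the most abundant coding transcript of the same gene, called the coding model here if its stop codon was annotated. They fell into 5 classes. The largest class, 1617 members (45.8%), stopped inside an exon that the coding model also has. In 1564 of these (96.7%) the stop lay within the coding model's reading frame but in another frame. A further 1041 members (29.5%) stopped in an exon absent from the coding model, as the 5 splicing factor members above do. Of these exons 1029 were internal, with a median length of 121 bases (quartiles 91 and 165), and 30.8% of them had a length that is a multiple of 3. In 479 members (13.6%) the stop was in an extended form of a coding exon. Another 216 had no coding model to compare with. Their gene had no coding transcript in the table, or its most abundant coding transcript had no annotated stop codon. The remaining 169 (4.79%) ended at the coding model's own stop codon and had a junction further downstream, as HNRNPA1-205 and B2M-212 do. This last class had a median share of its gene of 10.4%, against 6.48%, 6.47% and 6.48% in the 3 classes with a different stop.

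Premature stops shortened the reading frame. Among 2372 members and coding models with complete ends, the median reading frame was 279 bases in the member and 1188 in the coding model, and the median ratio within a pair was 28.3%. The member's frame was shorter in 2215 of the 2372 and of equal length in 85. TGA ended 59.7% of the members' frames and 51.7% of the 2289 coding models' frames, TAA 21.1% and 27.3%, and TAG 19.2% and 20.9%. An exon junction split the stop codon itself in 43 members (1.22%) and in 3 coding models (0.131%). TBL2-202, described below, is among the 43. Annotation support varied, since 959 members carried a tag for an incomplete end, 712 had the best transcript support level and 998 the weakest.

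Genes of SR and hnRNP splicing factors had 72 members in 37 genes, with a median share of the gene of 2.86%. SRSF6-202, whose stop codon is printed above, had 177 and 135 TPM in control and 173 and 155 TPM with JOA, and it held 76.1% and 72.1% of the gene in control and 72.5% and 70.2% with JOA. The coding model SRSF6-201 had 55.6 and 52.1 TPM in control and 65.7 and 65.8 TPM with JOA. The groups overlapped for the NMD transcript, and its log2 difference had a 95% interval from -0.34 to 0.51.

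SRSF7-208, from another SR protein gene, held 38.1% and 26.8% of its gene in control and 41.8% and 39.3% with JOA. TARDBP-203, from the gene of TDP-43, which regulates its own RNA, held 28.2% and 26.6% in control and 25.9% and 25.4% with JOA. TRA2B-206 held 20% and 21.3% in control and 22.9% and 23.9% with JOA, at 48.1 and 57.2 against 57.0 and 58.6 TPM. Shares of TARDBP-203 were lower and those of SRSF7-208 and TRA2B-206 higher in both JOA libraries, and the adjusted p in the share fit by limma was 0.965 or more for each of the 3. CLK1-204, from the gene of a kinase of SR proteins, held 25.2% and 29.8% in control and 25.2% and 36.0% with JOA, so that its groups were not separated. TIAL1-213 was at 19.0% and 18.9% in control and 19.1% and 19.4% with JOA.

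**Figure D2:**
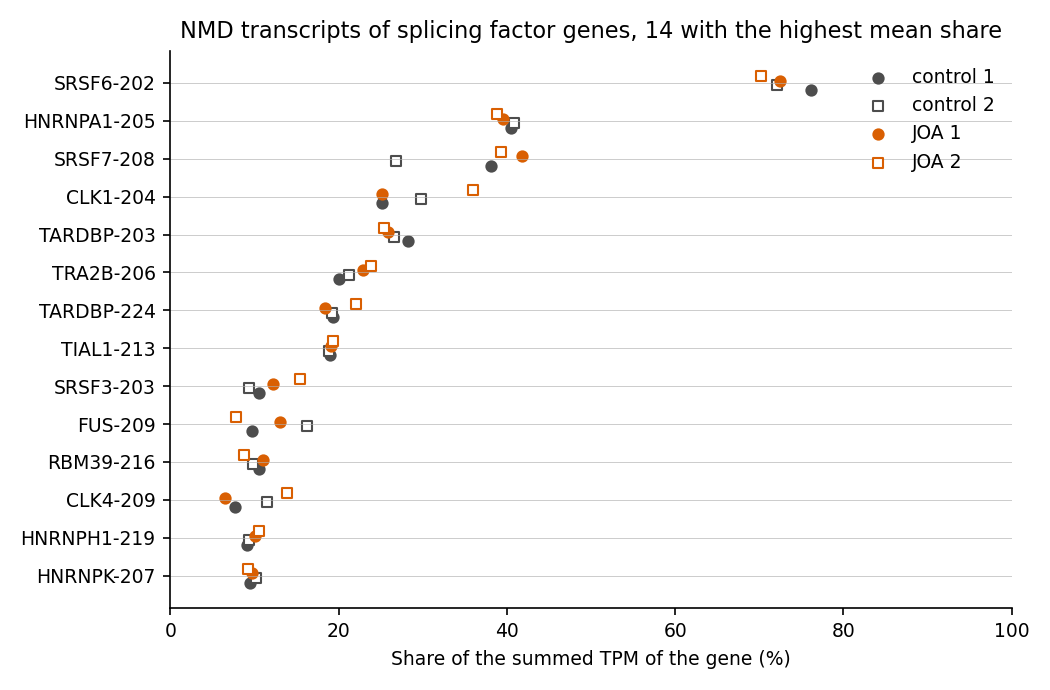
Share of the summed TPM of the gene (horizontal axis, %) for the 14 splicing factor NMD transcripts with the highest mean share, with 1 point for each library. SRSF6-202 lies between 70.2% and 76.1%, apart from the others, and the 4 libraries lie close together for most transcripts.

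The JOA contrast was tested with limma, a linear model that moderates each transcript's variance towards the others, on log2(TPM + 1) over all 49187 transcripts that reached 1 TPM. No member passed an adjusted p of 0.05, and the lowest adjusted p among members was 0.750. Over all transcripts 0 of 49187 were called as well, a background of 0%, with a lowest adjusted p of 0.254. At an unadjusted p under 0.05, 142 members (4.02%) were higher with JOA, beside 3.98% of all transcripts, and 79 (2.24%) were lower, beside 2.29%. The members' shares were thus close to the background in both directions. Leaving out 1 library at a time moved these counts. It leaves a single library in a group, so the counts of those fits are not given. With median-ratio scaling the split was 95 higher and 117 lower, beside 2.65% and 3.19% of all transcripts, and with mitochondrial transcripts removed before rescaling it was 104 and 100, beside 3.01% and 2.79%.

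The median member differed by 0.0496 on the log2(TPM + 1) scale, beside 0.0673 for all transcripts, and both changed sign with median-ratio scaling, to -0.0223 and -0.00629. With mitochondrial transcripts removed they were 0.00612 and 0.0248. Mitochondrial transcripts took 14.6% and 16.4% of the TPM in control and 11.2% and 13.1% with JOA, and since TPM values are shares of a fixed total, a lower level of 1 class and a higher level of the rest cannot be told apart. Nor can fewer cells of a kind be told apart from less RNA per cell in such bulk samples.

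As a share of all TPM, the members were at 2.50% and 2.49% in control and at 2.62% and 2.69% with JOA. The difference of 0.159 percentage points had p = 0.333 in a 2-sided exact permutation test over the 4 libraries, the smallest p that 2 against 2 allows. Without mitochondrial transcripts the values were 2.93% and 2.98% in control and 2.95% and 3.10% with JOA, groups that overlapped, and the difference was 0.0689 (exact permutation p = 0.667). Of the TPM of their own genes the members held 9.13% and 9.41% in control and 9.18% and 9.66% with JOA, again with overlap (exact permutation p = 0.667).

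Against the rest of their gene, 3497 members could be tested among 45512 transcripts with limma on log2((transcript TPM + 1)/(TPM of the other transcripts + 1)). None was called, beside 0% of all, and the lowest adjusted p was 0.765. At an unadjusted p under 0.05, 83 members (2.37%) had a higher ratio with JOA, beside 2.35% of all transcripts, and 90 (2.57%) a lower one, beside 2.71%. Median-ratio scaling turned this split to 90 and 83, and the share over all transcripts under that scaling is not given here. With all 4 libraries, the median was -0.0188, beside -0.0122 over all, and 47.8% of members were positive, beside 48.6%. Leaving out 1 library at a time moved the split as well, and gave medians from -0.0272 (without control 1) to -0.00421 (without JOA 1).

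**Figure D3:**
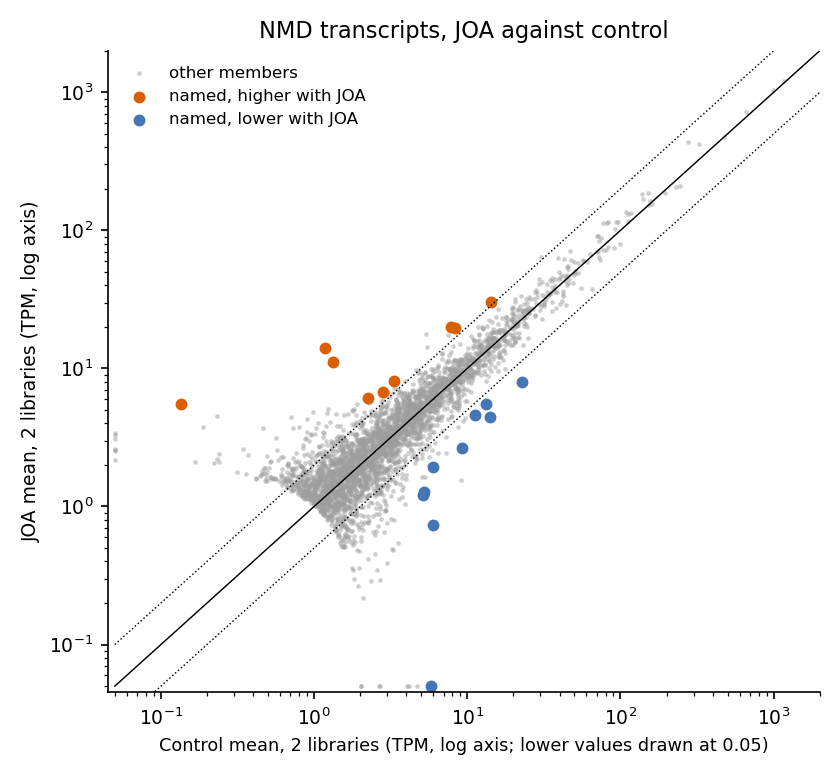
Mean TPM with JOA (vertical log axis) against control (horizontal log axis) for the 3529 members, each from 2 libraries, with equality as a solid line and 2-fold differences dotted. Named members with higher JOA values are orange and those with lower values blue, values under 0.05 are drawn at 0.05, and the limit of 1 TPM on the mean over all 4 libraries gives the empty corner at lower left.

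The design left room for differences of some size in single members. The median SE of a member's log2 difference was 0.295, compared with 0.249 for coding transcripts. The 95% interval stayed within a 2-fold difference of TPM + 1 for 1685 members (47.7%). For 1844 it reached 2-fold or more in at least 1 direction. In scarce members, a 2-fold difference of TPM + 1 is a clearly larger fold of TPM. Replicate spread was larger in NMD than in coding transcripts of the same level. Between 1 and 2 TPM the median SD within groups was 0.326 for NMD, 0.292 for retained intron and 0.298 for coding transcripts, and between 10 and 50 TPM it was 0.190, 0.213 and 0.145.

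**Figure D4:**
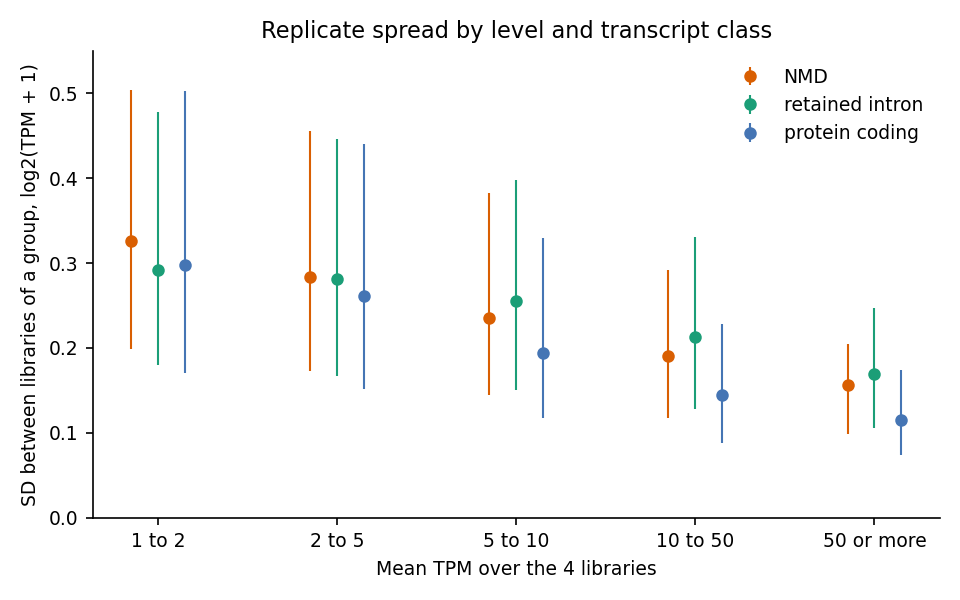
Median SD between libraries of a group on the log2(TPM + 1) scale (vertical axis) by mean TPM (horizontal axis) for NMD, retained intron and protein coding transcripts, with bars from the first to the third quartile over transcripts. The spread falls with level in all 3 classes, from 0.326 to 0.157 for NMD transcripts.

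Members to name were taken where the groups did not overlap, the unadjusted p was under 0.05 and the higher group mean was 5 TPM or more. For higher values with JOA, 72 members (2.04%) met these conditions, beside 2.53% of all transcripts, and for lower values 34 (0.963%), beside 1.23%. The values below describe members among the 10 furthest in each direction, all of which had an adjusted p of 0.750 to 0.785 in limma, so none passed the test.

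The reading frames of 5 of the named members all stop within an exon of the coding model. The stop codon lies inside the exon, is split by an exon junction, or comes just after a junction. The ends of these frames are given in RNA sense, 5′ to 3′, from GENCODE release 29 on GRCh38, with the stop codon in capitals.
MPHOSPH9-223, minus strand, chr12:123162123-123162182: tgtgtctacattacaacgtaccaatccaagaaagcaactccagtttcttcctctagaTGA
UBE2D4-209, plus strand, stop codon at chr7:43938435-43938437: aggagaagcaggcgtgtcacctggaatTAA
AKAP8-205, minus strand, chr19:15373030-15373089: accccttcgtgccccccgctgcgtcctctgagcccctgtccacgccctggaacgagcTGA
TBL2-202, chromosome 7, minus strand, stop codon split between 73574121 and 73578420: ggggaggagaggagcggccggcccgccTAG
EIF4A1-216, plus strand, stop codon at chr17:7574548-7574550: gatggagcccgaaggcgtcatcgagagTAA

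Among members with higher JOA values, UBE2D4-209 and UBE2N-203 came from genes of ubiquitin-conjugating enzymes. UBE2D4-209 had 7.85 and 7.82 TPM in control and 17.4 and 22.4 TPM with JOA, a log2(TPM + 1) difference of 1.23 (SE 0.18). It held 48.6% and 39.0% of its gene in control and 60.9% and 73.5% with JOA. UBE2N-203 (UBC13, which builds K63-linked ubiquitin chains) had 2.80 and 1.72 TPM in control and 7.37 and 4.94 TPM with JOA.

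MPHOSPH9-223 had the smallest error for its size in this group. The gene encodes a centriole-associated phosphoprotein, and the transcript had 1.54 and 1.13 TPM in control and 10.8 and 11.3 TPM with JOA, a log2(TPM + 1) difference of 2.37 (SE 0.21). Its share of the gene was 2.71% and 2.26% in control and 18.8% and 14.4% with JOA, and the coding model MPHOSPH9-220 overlapped between groups at 13.3, 11.3, 12.6 and 15.5 TPM. The adjusted p in limma was 0.750 for the transcript and 0.765 for the share. FHOD1-208, from a formin gene, had 7.22 and 9.34 TPM in control and 22.7 and 16.3 TPM with JOA. DGKZ-208 (diacylglycerol kinase zeta) had 9.90 and 18.5 TPM in control and 26.3 and 33.9 TPM with JOA.

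The other 4 members with higher values include the least certain. RPS3-210 had 2.32 and 0.0208 TPM in control and 11.6 and 16.3 TPM with JOA, yet this was at most 0.564% of the TPM of RPS3. SULT1A1-205, from a sulfotransferase gene with close paralogs on the same chromosome, had 0.166 and 0.104 TPM in control and 7.51 and 3.57 TPM with JOA, while its coding model SULT1A1-204 had 6.38 and 4.80 TPM in control and 0.764 and 1.37 TPM with JOA. The summed gene was at 12.2, 9.76, 14.4 and 9.92 TPM, which overlapped between groups. SULT1A1-205 had a control mean of 0.135 TPM, so it had passed the limit of 1 TPM through the JOA group alone. How reads were divided between the 2 transcripts is not known. CREBZF-205, of a bZIP factor gene, had 2.83 and 3.84 TPM in control and 5.32 and 11 TPM with JOA, and DNAJC10-202, of an ER disulfide reductase gene, had 2.77 and 2.84 TPM in control and 5.35 and 8.16 TPM with JOA.

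**Figure D5:**
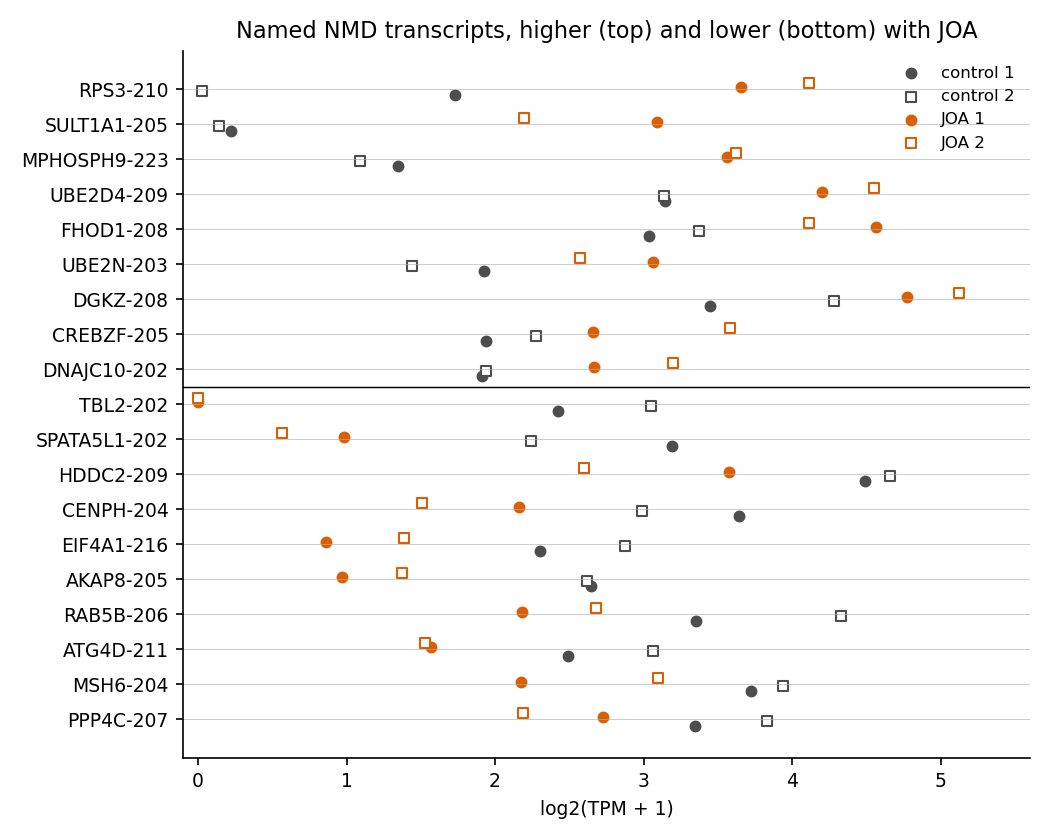
Values of 19 named members on the log2(TPM + 1) scale (horizontal axis), with 1 point for each library, those with higher JOA values above the line and those with lower values below it. The groups do not overlap in any row because the naming conditions required it, and replicates lie far apart in RPS3-210, SPATA5L1-202 and RAB5B-206.

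Among members with lower JOA values, TBL2-202 had 4.37 and 7.30 TPM in control and 0.000153 and 2.87e-08 TPM with JOA, values that are 0 in practice, so no fold is given. TBL2 encodes a WD-repeat protein of the ER, and another of its NMD transcripts, TBL2-203, had 0.000524 and 0.932 TPM in control and 3.95 and 3.49 TPM with JOA. The gene sum was 71.4 and 73.5 TPM in control and 64.7 and 59.6 TPM with JOA. The 2 transcripts thus went opposite ways in a gene whose sum differed much less than either. TBL2-202 had passed the limit of 1 TPM through the control group alone, and TBL2-203 through the JOA group alone.

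AKAP8-205 had close replicates, with 5.27 and 5.14 TPM in control and 0.959 and 1.59 TPM with JOA, a log2(TPM + 1) difference of -1.46 (SE 0.26). AKAP8 encodes a nuclear anchoring protein for protein kinase A, and its coding model had 17, 16.1, 18.2 and 18.7 TPM in the 4 libraries. HDDC2-209 had 21.5 and 24.3 TPM in control and 10.9 and 5.05 TPM with JOA, from 26.1% and 27.4% of the gene to 14.6% and 8.23%. MSH6-204, from a DNA mismatch repair gene, had 12.2 and 14.3 TPM in control and 3.51 and 7.56 TPM with JOA. CENPH-204 (a kinetochore protein gene) had 11.5 and 6.95 TPM in control and 3.47 and 1.84 TPM with JOA, and its stop lies only 33 bases before the last junction.

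The other lower members were EIF4A1-216, SPATA5L1-202, RAB5B-206, ATG4D-211 and PPP4C-207. EIF4A1-216, from the gene of the translation initiation helicase eIF4A1, had 3.93 and 6.35 TPM in control and 0.818 and 1.62 TPM with JOA, under 1% of a gene whose coding model had 479, 484, 487 and 520 TPM. SPATA5L1-202 had 8.13 and 3.73 TPM in control and 0.978 and 0.483 TPM with JOA, from 31.7% and 21.9% to 5.24% and 2.92% of its gene. Its JOA mean was 0.731 TPM, so it had passed the limit of 1 TPM through the control group alone. RAB5B-206, of an early endosome GTPase gene, had 9.20 and 19.1 TPM in control and 3.53 and 5.41 TPM with JOA. ATG4D-211, of an autophagy protease gene, had 4.63 and 7.35 TPM in control and 1.96 and 1.88 TPM with JOA. PPP4C-207 (the catalytic subunit of phosphatase 4) had 9.16 and 13.2 TPM in control and 5.62 and 3.56 TPM with JOA.

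Ranking by share added 2 members. P4HB-220, from the gene of protein disulfide isomerase, had 0.352% and 0.192% of the gene in control and 0.595% and 1.18% with JOA, at 2.78 and 1.80 against 3.92 and 7.36 TPM. LSM14A-207, from the gene of a P-body protein, had 2.64 and 7.90 TPM in control, 3.27 TPM in JOA 1, and was listed at 0 in JOA 2. Its share went from 83.8% and 90.2% to 22% and 0%, but its gene sum was only 3.15 to 14.8 TPM, and the TPM values of the groups overlapped.

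In the splicing factor list, 6 of 72 members were higher at an unadjusted p under 0.05 and none was lower, beside backgrounds of 3.98% and 2.29%, and none was called by limma. HNRNPDL-202 had 28.5 and 30.3 TPM in control and 40.9 and 41.5 TPM with JOA, while the coding model of this hnRNP gene had 303 and 269 TPM in control and 229 and 208 TPM with JOA. SRSF3-203 had 44.7 and 40.8 TPM in control and 53.7 and 70.5 TPM with JOA. SRSF1-204 had 14.3 and 11.2 TPM in control and 21.3 and 18.2 TPM with JOA. HNRNPH1-219 had 89.5 and 72.8 TPM in control and 106 and 120 TPM with JOA. RBM39-206 and RBM39-244, of a U2AF-related splicing factor gene with 9 members in all, had 21.7 and 19.1 against 27.4 and 32.8 TPM, and 2.00 and 2.09 against 4.93 and 3.89 TPM. The groups did not overlap in any of the 6, and each had an adjusted p of 0.785 in limma.

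The median over the 72 splicing factor members was 0.182, and it was 0.104 and 0.141 under the other 2 scalings, beside 0.0496, -0.0223 and 0.00612 for all members. Of the 72, 53 were positive, and 45 and 49 under the other 2 scalings, beside 55.9%, 47.8% and 50.8% of all members. The ratio of the 72 to the rest of their gene had a median of 0.121, with 41 positive, beside -0.0188 and 47.8% for all members. None of the 72 had an unadjusted p under 0.05 in that fit by limma in either direction. Leaving out 1 library gave medians of the 72 from 0.128 (without control 2) to 0.273 (without JOA 1). The count of 6 rose or fell in most of those fits and is not given for them, since 1 group then held a single library. Members of 1 gene share exons, so the 72 are not independent measurements.

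No member of any other list was called. The counts of the other lists at an unadjusted p under 0.05 stand beside the same 3.98% higher and 2.29% lower over all transcripts. Proteasome and ubiquitin genes had 6 of 55 members higher and 1 lower, with a median of 0.113 (0.0545 and 0.0783 under median-ratio scaling and without mitochondrial transcripts). Ribosomal protein genes had 4 of 36 higher and 2 lower, with a median of 0.136 (0.0521 and 0.0875) and a median share of the gene of only 0.357%. DNA replication and repair genes had 1 of 48 higher and 3 lower, with a median of -0.120 (-0.190 and -0.167). Oxidative phosphorylation genes had 1 of 34 in each direction, and myeloid and immune genes had 0 of 13 higher and 1 lower. Leaving out 1 library moved these counts as well, and they are not given for those fits. The ribosomal median was 0.0643 without control 1 and 0.222 without control 2, and the replication and repair median was -0.0322 without JOA 1.

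Mitotic genes had 20 members, none of which passed the unadjusted threshold in either direction with all 4 libraries. This did not hold in every fit with 1 library left out. The median of the 20 was 0.0201, and it changed sign to -0.0566 and -0.0286 under the other scalings. For the genes themselves, summed over their transcripts, 65 of 69 mitotic genes had positive differences, 30 were higher at an unadjusted p under 0.05 and none was lower, beside 8.18% and 2.38% of all 12794 genes. Over all 12794 genes, 8479 had positive differences. The count of 30 was 14 with median-ratio scaling, beside 607 of all 12794 genes, and it was smaller in each fit with 1 library left out. No mitotic gene was called, and 1 gene of 12794 was (0.00782%). The ratio of the mitotic members to the rest of their genes had a median of -0.263, with 5 of 20 positive and 1 lower at an unadjusted p under 0.05. Over all transcripts the median ratio was -0.0122, 48.6% were positive and 2.71% were lower at that threshold. Some of the 20 come from the same gene, so they are not independent measurements.

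Amino acid and stress response genes had 12 members in 7 genes, of which TBL2-203 was higher and TBL2-202 lower at an unadjusted p under 0.05. The median of the 12 was -0.281, and it was -0.348 with median-ratio scaling and -0.340 without mitochondrial transcripts. Of the 12, 4 were positive, and 3 and 4 under those 2 scalings, beside 55.9%, 47.8% and 50.8% of all members. Leaving out 1 library gave medians from -0.369 to -0.167. Members of 1 gene share exons, so the 12 are not independent measurements. MTHFD2-205, from the gene of a mitochondrial folate enzyme, was the most abundant of them, at 113 and 112 TPM in control and 106 and 129 TPM with JOA. It held 54.1% and 55.5% of its gene in control and 57.0% and 55.7% with JOA, with a 95% interval of the log2 difference from -0.28 to 0.40. ASNS-213, of asparagine synthetase, had 6.45, 4.40, 5.10 and 6.56 TPM in the 4 libraries. ATF4, the transcription factor of this response, was at 478 and 448 TPM in control and 479 and 521 TPM with JOA as a summed gene, groups that were less than 1 TPM apart at their nearest values. Of the 31 summed genes of this list, 1 was higher and 2 were lower at an unadjusted p under 0.05 in limma. Over all genes these shares were 8.18% and 2.38%, and no gene of the list was called.

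All 25 genes on the list of decay factors reached 1 TPM. None was called in the gene fit by limma, and none had an unadjusted p under 0.05 in either direction, beside 8.18% higher and 2.38% lower over all genes. With median-ratio scaling 1 of the 25 was lower, beside 532 of all 12794 genes. Some were higher without control 1, a fit with a single control library. The median difference in that fit was 0.157 for the 25 and 0.128 for all genes. UPF1, the central helicase, had 68.0 and 61.4 TPM in control and 68.1 and 58.5 TPM with JOA. UPF2, which bridges UPF1 and UPF3, had 12.6 and 9.91 TPM in control and 13.9 and 14.3 TPM with JOA, a log2(TPM + 1) difference of 0.31 (SE 0.17) with an adjusted p of 0.550 in limma. UPF3A and UPF3B, the adaptors to the junction complex, had 56.0 to 63.9 and 34.3 to 51.1 TPM over the 4 libraries. The groups overlapped for UPF1 and did not for UPF2.

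The kinase SMG1 had 28.3 and 21.9 TPM in control and 25.9 and 29.2 TPM with JOA, and its subunit SMG9 had 47.6 and 46.1 against 40.5 and 41.2 TPM, an adjusted p of 0.576 in limma. The endonuclease SMG6 had 13.3 and 14.3 TPM in control and 15.5 and 14.4 TPM with JOA. SMG5, which binds phosphorylated UPF1, had 71.5 to 79.7 TPM. The junction core genes MAGOH and RBM8A had 89.4 to 104 and 172 to 190 TPM, with groups that overlapped. EIF4A3 had 75.9 and 81.1 TPM in control and 74.7 and 75.4 TPM with JOA, without overlap. CASC3 had 81.1 and 70.0 TPM in control and 83.2 and 83.1 TPM with JOA, also without overlap. The decapping gene DCP2 had 20.9 and 18.5 TPM in control and 21.3 and 24.2 TPM with JOA. DCP1A, also of decapping, had 12.5 and 11.8 TPM in control and 15.2 and 14.6 TPM with JOA. Neither overlapped between groups, whereas the exonuclease XRN1 did, at 10.4 and 5.89 against 9.39 and 9.08 TPM.

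Some decay factor genes themselves had members. There were 7 members in 5 of the 25 genes, and none had an unadjusted p under 0.05 in the transcript fit of all 4 libraries. That was no longer so without JOA 1, a fit with a single JOA library. Against the rest of its gene, 1 was lower at an unadjusted p under 0.05, beside 2.71% of all transcripts: CASC3-205, of a junction core gene, held 2.89% and 2.63% of the gene in control and 0.944% and 1.44% with JOA, and was not called by limma. The JOA mean of CASC3-205 was 0.99 TPM, so it had passed the limit of 1 TPM through the control group alone. DHX34-202, of an RNA helicase gene, was the most abundant, at 13.5 and 17.7 TPM in control and 18.1 and 12.3 TPM with JOA, or 24.8%, 29.5%, 31.2% and 25.5% of its gene. The 2 members of MAGOHB, a copy of the junction protein MAGOH, went apart: MAGOHB-208 had 5.69 and 5.0 against 6.88 and 7.97 TPM, and MAGOHB-209 had 3.61 and 3.20 against 2.55 and 1.06 TPM.

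Across the series' depth and identity checks, the 4 columns summed to between 999679 and 999758, so the depth behind them is unknown and no counting error could be given. Correlation of log2(TPM + 1) over the tested transcripts was 0.926 between the control libraries and 0.924 between the JOA libraries, and over all pairs it ran from 0.916 to 0.937, so libraries of a group were not more alike than some libraries across groups. Of the 6 promyelocyte markers, 5 were lower in both JOA libraries than in both control libraries. MPO had 7983 and 7693 TPM in control and 5886 and 4679 TPM with JOA, CTSG 335 and 396 against 218 and 120, PRTN3 141 and 257 against 41.9 and 41, and AZU1 188 and 171 against 155 and 93.3. ELANE was near 0 throughout, at 1.59 TPM or less, and CD33 was higher with JOA, at 58.4 and 49.8 against 72.2 and 75.4 TPM. Whether these levels bear on the members was not tested. Of the other cell types' markers given here, CD2, CD3E, HBB, ALAS2, CDH1, COL1A1, COL1A2 and COL3A1 stayed under 0.4 TPM, whereas CD3D had 26.1 to 47.3 TPM, EPCAM 10.2 to 16 TPM and CD79A 4.68 to 5.77 TPM. KRT5 and MS4A1 were looked for and had no value.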

How the data were processed

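The NB4 table was deposited with columns named FPKM, but each column sums to almost 1000000, so the values were read as TPM made by the authors. Per the submitters' processing notes the build was hg38, and HISAT2, HTSeq, Cufflinks and Trimmomatic are listed there without role or version. Transcript identifiers were matched to GENCODE release 29 (93.9% of rows, with 7410 unmatched rows holding 2.91% to 3.18% of TPM). Transcripts with a mean of 1 TPM or more were fitted with limma 3.58.1 (R 4.3.3) on log2(TPM + 1) with a variance trend, JOA against control, 2-sided, with Benjamini-Hochberg adjustment over all transcripts. The same was done for the ratio to the rest of the gene and for summed genes of 1 TPM or more. Named members were those called (none), the 10 furthest in each direction under the conditions given above, the 6 furthest by share, the 10 most abundant, and members in the splicing, decay factor and amino acid lists. Members and lists were chosen with earlier results of these data known. Stop positions and sequences came from the same GENCODE release on GRCh38. The scripts were tested on simulated data. The other cell line's table was not used. Alternatives were another pseudocount, filter, scaling and variance model, a replicate block, stricter sets of members and genes, and each library left out. A few named members and genes are not reported here.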

Additional observations from a re-analysis of the deposited data

How the results depend on the processing

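No member and no decay factor gene was called under any of the alternatives run. With a pseudocount of 0.1 the median of the members against the rest of their gene was -0.00796. Median-ratio scaling turned the members' median to -0.0223, and removing mitochondrial transcripts gave 0.00612 and a difference of 0.0689 percentage points of TPM. Restricting the members to a mean of 5 TPM or more left 56 higher and 24 lower at an unadjusted p under 0.05 in limma among 982. The share over all transcripts of that level is not given here, so these counts show no excess or deficit. The median was then 0.0774, and 0.0261 against the rest of the gene, a change of sign. Members without an incomplete end gave a difference of 0.0985 percentage points. These 2 settings count fewer members, and the cause of the other shifts was not tested. Leaving out 1 library gave 60 to 170 higher, 49 to 122 lower, medians from 0.022 to 0.0812 and medians against the rest of the gene from -0.0272 to -0.00421. In their titles, same-numbered libraries are linked by the number alone, and whether they share a culture or batch is not stated. The correlation of their deviations was 0.0816. With a replicate block, 137 members were higher and 85 lower at an unadjusted p under 0.05 in limma. The share over all transcripts in that fit is not given here, so these counts show no excess or deficit. The depth is unknown, and the 2 libraries of each group set the precision.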
